A study of Sus scrofa with 6 samples.

Results

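PLEKHA8, FAM84A and KIAA1191 were followed in the embryonic pig cerebral cortex on every probe set that carries 1 of these 3 symbols alone in the annotation of the array. They are 3 of 6765 different symbols and hold 9 of the 23999 probe sets tested, of which 5 belong to PLEKHA8, 2 to FAM84A and 2 to KIAA1191. The genes were chosen by their large drops in signal between the days on the same 6 arrays, so their E80 against E60 differences are given as a description, with no test. Cortical RNA of 3 pig embryos at embryonic day 80 (E80), when the cortex has its primary folds, and of 3 embryos at embryonic day 60 (E60), when it is still smooth, was hybridised to 1 Affymetrix Pig Genome Array per embryo. The labels give no treatment, genotype, breed or sex, and name the tissue as cortical without the region taken. Litter mates are mentioned in the series design but no array is assigned to a litter, so litter and day cannot be told apart, and p-values measure only the spread between these 6 embryos. The values are MAS5 signals, linear intensities in which the probes of a set are combined into 1 value per array.

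The 3 genes code for proteins of unrelated kinds. PLEKHA8, also named FAPP2, binds phosphatidylinositol 4-phosphate and the small GTPase ARF1 at the trans-Golgi and carries glucosylceramide, the first building block of most gangliosides, between membranes. FAM84A, now named LRATD1, belongs to a small family with a lecithin retinol acyltransferase (LRAT) domain and has the older alias NSE1. That alias is shared with NSMCE1, a subunit of the SMC5/6 complex of chromosome maintenance. The study lists falling transcripts under NSE1 and expands the name as a non-SMC element homolog, not as FAM84A. Whether those entries are the FAM84A probe sets is not shown by the values given here. KIAA1191 codes for a putative monooxygenase that has been linked to neuronal survival and outgrowth.

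The 9 probe sets did not move as one group. Of the 9, 8 had a lower signal in E80 cortex than in E60 cortex, and the brighter probe set of KIAA1191 had a higher one. On all 9 the 3 embryos of one day lay apart from the 3 of the other, which was also so for 23.6% of all probe sets tested, and with E80 lower for 14.4% of them. Among probe sets brighter than the median the share without overlap was 31.8%. Since this contrast chose the genes, nothing is read from that count. Across all 23999 probe sets limma called 1.95% at an adjusted p under 0.05, with 0.933% higher and 1.01% lower at E80. A drop between the days was thus seen on every probe set of PLEKHA8 and FAM84A, and on 1 of 2 of KIAA1191. Among the 11999 probe sets brighter than the median, the steepest set of PLEKHA8 ranked 5 from the most negative difference and its other 2 sets above that level ranked 17 and 322, those of FAM84A ranked 8 and 9, and those of KIAA1191 ranked 31 and 10259.

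**Figure D1:**
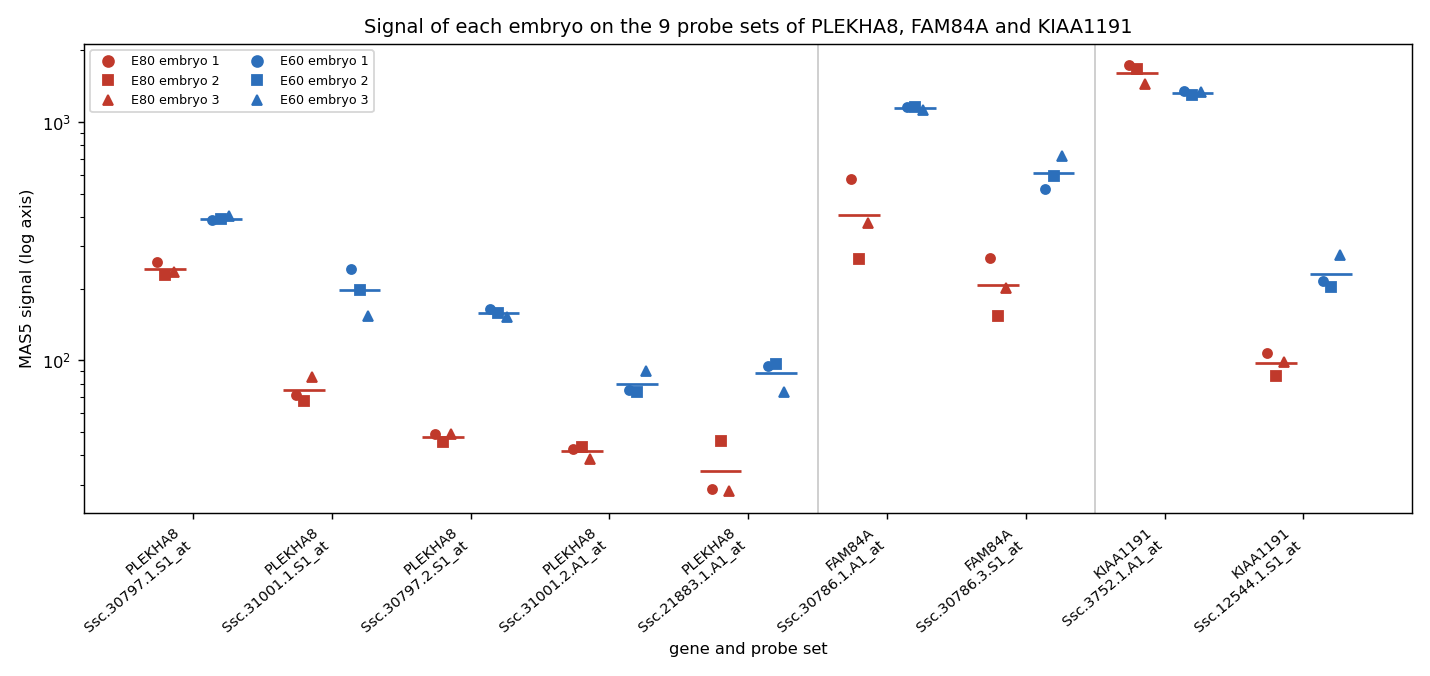
MAS5 signal (log axis) of each embryo on the 9 probe sets, with E80 in red and E60 in blue, 1 point per array and a bar at the mean of 3 embryos. The red points lie below the blue points on 8 probe sets and above them on the KIAA1191 probe set Ssc.3752.1.A1_at.

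PLEKHA8, the Golgi glucosylceramide carrier, was lower at E80 on each of its 5 probe sets, by amounts that differed between them. On Ssc.30797.2.S1_at the signal was 49.1, 45.4 and 49.4 in E80 embryos 1, 2 and 3, against 165, 158 and 152 in E60 embryos 1, 2 and 3. The lowest E60 embryo was 3.09-fold above the highest E80 embryo, and neither day spread by more than 1.09-fold from its lowest to its highest embryo. The mean was 48.0 ± 2.21 at E80 and 159 ± 6.19 at E60 (SD, n = 3 each), a log2 difference of -1.73 with a standard error of 0.05 from the spread between embryos, so that E80 stood at 30.2% of E60. Within a day the embryos spread less here than is usual at this signal, with a log2 SD of 0.06 against a median of 0.22 over the 1000 probe sets nearest in level.

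The brightest PLEKHA8 probe set showed the smallest difference of the 5. On Ssc.30797.1.S1_at the signal was 259, 228 and 234 in the E80 embryos, against 386, 390 and 402 in the E60 embryos. These values gave a log2 difference of -0.71 (standard error 0.06), with E80 at 61.2% of E60. By their identifiers this set and Ssc.30797.2.S1_at come from the same transcript cluster, yet the ratio of the first to the second was 5.27, 5.02 and 4.74 on the E80 arrays, against 2.34, 2.46 and 2.63 on the E60 arrays. The ratio thus changed without overlap between the days, and a single common fold does not describe both sets.

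The remaining PLEKHA8 probe sets lay between these extremes. Ssc.31001.1.S1_at had signals of 71.3, 67.7 and 85.4 at E80, against 242, 196 and 154 at E60, a log2 difference of -1.38 (standard error 0.21). Ssc.31001.2.A1_at, from the same cluster by its identifier, had 42.5, 43.5 and 38.7 at E80, against 74.8, 73.6 and 90.0 at E60, a log2 difference of -0.93 (standard error 0.11). Embryo by embryo these sets did not follow each other, since E60 embryo 3 was the lowest E60 embryo on the first and the highest on the second. Ssc.21883.1.A1_at had 28.8, 45.9 and 28.3 at E80, against 94.3, 96.5 and 73.6 at E60, a log2 difference of -1.39 (standard error 0.26). The last 2 sets have a mean log2 signal below the median of all probe sets, where signals are noisier, and E80 embryo 2 stood 1.62-fold above E80 embryo 3 on Ssc.21883.1.A1_at. The median log2 difference over the 5 sets was -1.38. It was -0.86 with 32 added to each signal, a step that pulls dim signals together.

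FAM84A was lower at E80 by nearly the same amount on both of its probe sets. On Ssc.30786.1.A1_at the signal was 573, 267 and 377 in E80 embryos 1, 2 and 3, against 1150, 1158 and 1124 in the E60 embryos. The E60 embryos differed by no more than 1.03-fold, whereas the E80 embryos differed by 2.14-fold. The mean was 406 ± 155 at E80 and 1144 ± 17.7 at E60 (SD, n = 3 each), a log2 difference of -1.57 (standard error 0.32), with E80 at 33.8% of E60. On Ssc.30786.3.S1_at the signal was 268, 153 and 202 at E80, against 521, 592 and 716 at E60, a log2 difference of -1.58 (standard error 0.27).

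Both FAM84A probe sets placed the E80 embryos alike, with embryo 1 highest and embryo 2 lowest. They did not place the E60 embryos alike. E60 embryo 3 was the lowest on Ssc.30786.1.A1_at, where E60 differed by no more than 1.03-fold, and the highest on Ssc.30786.3.S1_at. The distance of single E80 embryos from the E60 mean on Ssc.30786.1.A1_at was -0.998, -2.10 and -1.60 on the log2 scale in embryos 1, 2 and 3, and on Ssc.30786.3.S1_at it was -1.17, -1.98 and -1.58. The ratio between both sets was 2.14, 1.74 and 1.87 on the E80 arrays, against 2.21, 1.96 and 1.57 on the E60 arrays, so the days overlapped. The sets share the cluster number of their identifiers and are no independent replicates of each other. The within-day log2 SD of Ssc.30786.1.A1_at was 0.39, against a median of 0.13 over the 1000 probe sets nearest in level, and the E80 embryos carried this spread.

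**Figure D2:**
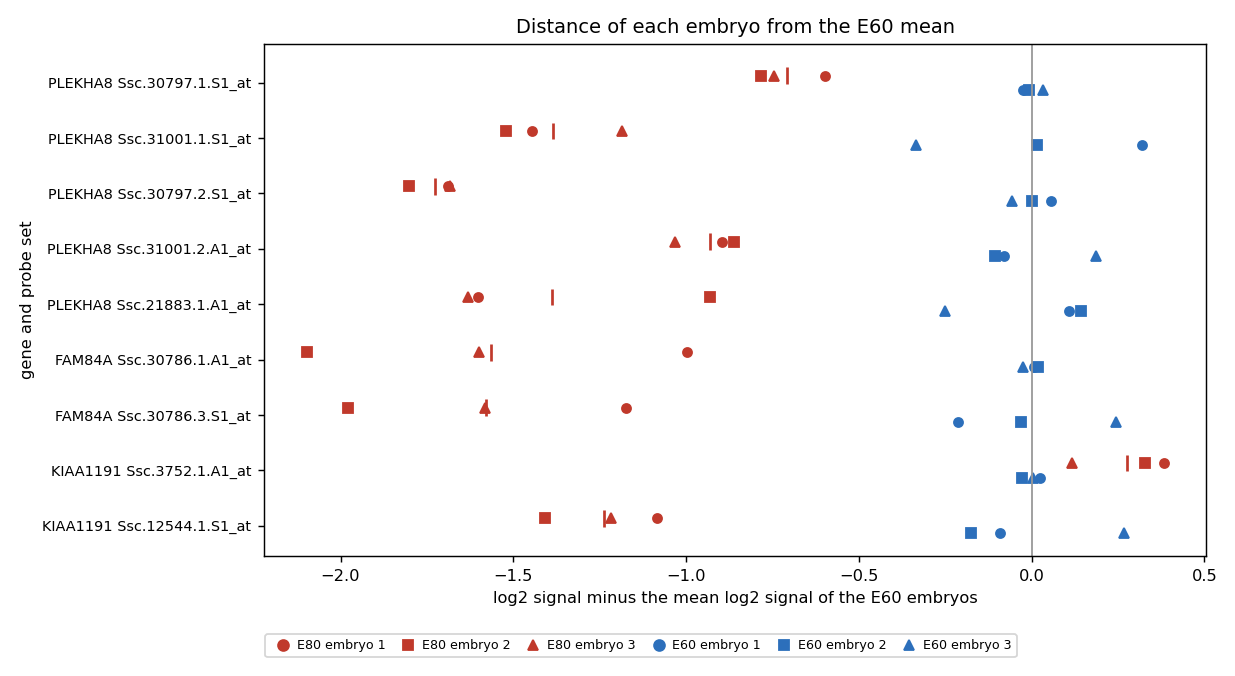
Log2 signal of each embryo minus the mean log2 signal of the E60 embryos, for the 9 probe sets, with E80 in red above E60 in blue and a red bar at the E80 mean. On both FAM84A sets E80 embryo 1 lies nearest to the E60 embryos (-0.998 and -1.17) and E80 embryo 2 farthest from them (-2.10 and -1.98).

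The 2 probe sets of KIAA1191, the putative monooxygenase, went in opposite directions. On Ssc.12544.1.S1_at the signal was 108, 86.0 and 98.2 in the E80 embryos, against 215, 202 and 275 in the E60 embryos. The mean was 97.3 ± 10.9 at E80 and 231 ± 39.0 at E60 (SD, n = 3 each), a log2 difference of -1.24 (standard error 0.17), with E80 at 42.4% of E60. On the brighter Ssc.3752.1.A1_at the signal was 1723, 1661 and 1435 at E80, against 1345, 1298 and 1325 at E60. The mean was 1606 ± 151 at E80 and 1323 ± 23.6 at E60, a log2 difference of 0.28 (standard error 0.08), with E80 at 121% of E60.

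The difference on the brighter KIAA1191 set was small beside that on the other. The lowest E80 embryo, embryo 3, was 1.07-fold above the highest E60 embryo on Ssc.3752.1.A1_at, while the lowest E60 embryo was 1.88-fold above the highest E80 embryo on Ssc.12544.1.S1_at. The log2 difference of the brighter set was 0.16 after quantile normalization and 0.39 after median centring, and it stayed above 0 in every alternative run. The ratio of the brighter to the dimmer set was 16.0, 19.3 and 14.6 on the E80 arrays, against 6.27, 6.42 and 4.82 on the E60 arrays. The sets come from different clusters by their identifiers, and which part of the KIAA1191 transcripts each one reads is not given in the sources used here. A single direction for KIAA1191 as a gene cannot be stated from these values.

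**Figure D3:**
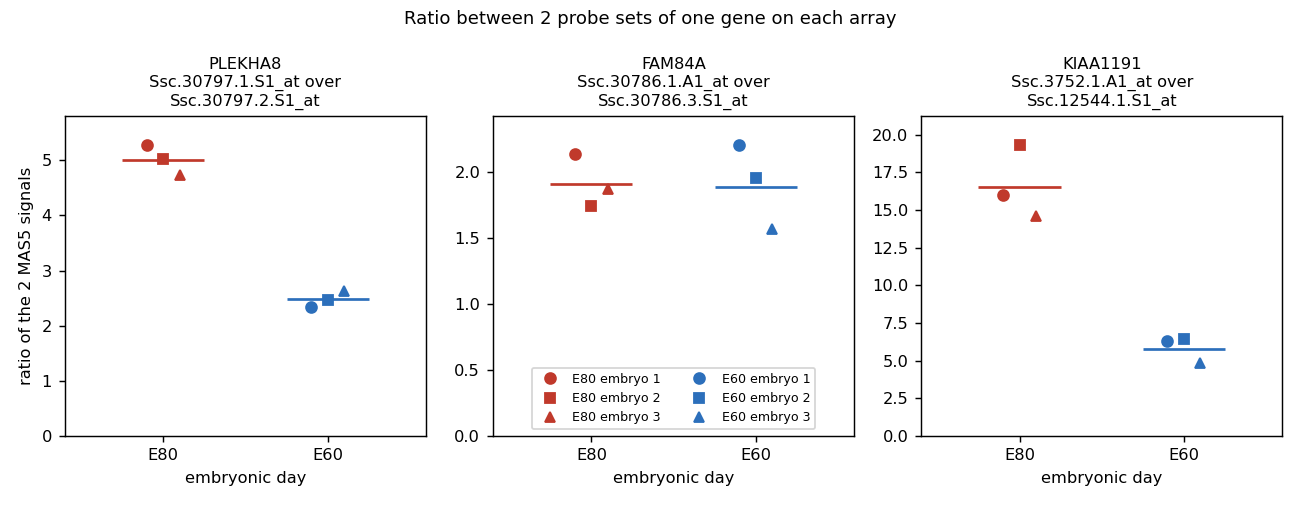
Ratio of the MAS5 signals of 2 probe sets of one gene on each array (vertical axes start at 0, and each panel has its own range), with E80 in red, E60 in blue and bars at the geometric mean. Each pair is the brightest set of a gene over the set whose day difference lies farthest from it. The ratio of these pairs differs without overlap between the days for PLEKHA8 (5.01 at E80 and 2.48 at E60) and KIAA1191 (16.5 and 5.79). It overlaps for FAM84A (1.91 and 1.89). Not every PLEKHA8 pair differs in this way: Ssc.31001.1.S1_at over Ssc.21883.1.A1_at overlaps (2.23 at E80 and 2.22 at E60).

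The level of the whole array moved little beside these differences. The median signal was 55.6 to 59.5 on the E80 arrays and 60.9 to 64.8 on the E60 arrays, and the median log2 difference over all probe sets was -0.05. Median centring adds 0.12 to every log2 difference. E80 embryo 3 stood apart in the choroid plexus list, the markers of the tissue that makes cerebrospinal fluid. The summed signal of the 6 measured genes was 5573 in that embryo. It was 229 and 262 in the other E80 embryos, and 114 to 198 at E60. TTR alone gave 4475 of the 5573. F5, the only gene of the list that rose past the test (adjusted p = 0.0159 in limma), was 118, 64.1 and 108 in E80 embryos 1, 2 and 3. The other genes of the list were highest in E80 embryo 3. Without E80 embryo 3 the log2 differences were -1.75 for PLEKHA8 on Ssc.30797.2.S1_at, -1.55 for FAM84A on Ssc.30786.1.A1_at and -1.25 for KIAA1191 on Ssc.12544.1.S1_at. Markers of mature neurons and synapses, which do not tell cortex from other brain regions, were present. Their summed signals over 8 genes were 13213 to 14602 at E80 and 10281 to 11321 at E60. In limma 2 of the 8 rose and 0 fell, and their median log2 difference was 0.38. Of the other marker lists, 5 of 9 astrocyte genes and 3 of 8 radial glia genes rose past an adjusted p of 0.05. None fell past it in either list (7 and 5 genes under an unadjusted p of 0.05). Over all 6765 genes 1.49% rose and 1.05% fell by this rule on their brightest probe set. The radial glia genes did not move as one, with log2 differences from -0.38 (VIM) to 1.36 around a median of 0.48. None of 9 genes of fibroblasts and meninges passed (4 under an unadjusted p of 0.05) and none of 2 of striatum (1, median log2 difference -1.28). The summed signal of the 2 striatum genes was 174, 91.9 and 405 in E80 embryos 1, 2 and 3. In E60 embryos 1, 2 and 3 it was 747, 258 and 508. The median of the fibroblast list was -0.85 on the brightest probe set of each gene, -0.0145 on the mean of all its probe sets and -0.54 without E80 embryo 1, so no direction is given for it. The part of these cells in the differences of the 9 probe sets was not tested.

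Markers of dividing cells were read in the same arrays. Of the 11 measured, 3 fell and 0 rose in limma at an adjusted p under 0.05, where 2.54% of the 6765 genes with 1 symbol passed on their brightest probe set, 1.49% upward and 1.05% downward. PCNA, the sliding clamp of DNA polymerase, fell by 0.69 ± 0.11 (SE) on the log2 scale with an adjusted p of 0.0235, and cyclin B1 (CCNB1), which drives entry into mitosis, by 1.19 ± 0.22 with one of 0.0388. TOP2A, which untangles DNA in dividing cells, was the third (log2 change -1.11, adjusted p = 0.0474). The summed signal of the list was 772 to 936 at E80 and 1351 to 1452 at E60, and its median log2 difference was -0.59, against -0.0005 over all 6765 genes. With 32 added to each signal the median of the list was -0.37. None of the 3 genes passed without E60 embryo 1, 2 or 3 or E80 embryo 1, 1 of the list passed without E80 embryo 2 and 2 without E80 embryo 3. The count was 1 after quantile normalization or median centring and 0 without the intensity trend. The part of dividing cells in the lower signals of PLEKHA8, FAM84A and KIAA1191 was not tested, and in bulk tissue fewer cells of a type and less RNA per cell cannot be told apart.

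No gene of the 4 lists on glycosphingolipids, lipid transfer and the Golgi partners of PLEKHA8 passed the test. None of 9 measured genes of glycosphingolipid synthesis passed the test in limma, where 3 were under an unadjusted p of 0.05, and their median log2 difference was 0.02. None of 11 genes of glycosphingolipid breakdown passed (4 under an unadjusted p of 0.05, median 0.18), and none of 15 lipid transfer proteins did (3, median -0.03). The smallest adjusted p of these lists, picked after the values were seen, belonged to the lysosomal saposin precursor PSAP (log2 difference 0.43, adjusted p = 0.0528), the oxysterol-binding family member OSBPL1A (0.98, adjusted p = 0.0555) and the ceramide synthase CERS2 (-0.53, adjusted p = 0.0559). Of 20 Golgi phosphoinositide and ARF1 partners none passed (6 under an unadjusted p of 0.05, median 0.04). ARF1 itself differed by 0.12 on the log2 scale (adjusted p = 0.476) and the Golgi lipid kinase PI4KB by -0.14 (adjusted p = 0.518).

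The closest relatives of PLEKHA8 measured here were GLTP and PLEKHA3, and neither passed the test. GLTP, the soluble glycolipid transfer protein, had a signal of 119, 126 and 190 at E80, against 132, 110 and 90.1 at E60. Its days overlapped, with a log2 difference of 0.37 (standard error 0.22, adjusted p = 0.415 in limma). PLEKHA3, which has the same kind of lipid-binding domain but no transfer domain, was near the bottom of the range of signals at 13.0, 13.9 and 2.96 in the E80 embryos, against 14.5, 6.14 and 2.33 in the E60 embryos, and nothing can be read from it. With PLEKHA3 counted, 3 other PLEKHA and PLEKHB genes were measured, of which 1, PLEKHB2, rose and 0 fell. PLEKHB2, a membrane protein of recycling endosomes, had signals of 1154, 1067 and 1019 at E80, against 742, 733 and 732 at E60, higher by 0.55 ± 0.08 (SE) on the log2 scale with an adjusted p of 0.0226. This call was lost without E60 embryo 1 (adjusted p = 0.102), E60 embryo 2 (0.114) or E80 embryo 1 (0.111), and without the intensity trend (0.152).

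For FAM84A and KIAA1191 the related genes on the array were few. FAM84B, the closest relative of FAM84A, and NSMCE1, which shares its alias, could not be read, since no probe set carries either symbol alone. None of 5 LRAT-domain genes and retinoid enzymes passed (2 under an unadjusted p of 0.05, median log2 difference 0.10, or 0.47 without E80 embryo 1), among them the retinol carrier RBP4 with a log2 difference of 1.19 (adjusted p = 0.0502). The only measured gene of the SMC5/6 complex, NSMCE4A, had a log2 difference of -0.12 (adjusted p = 0.707). None of 8 flavin monooxygenases and related enzymes passed (2 under an unadjusted p of 0.05), and their log2 differences ran from -1.15 to 0.90 around a median of -0.05.

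**Figure D4:**
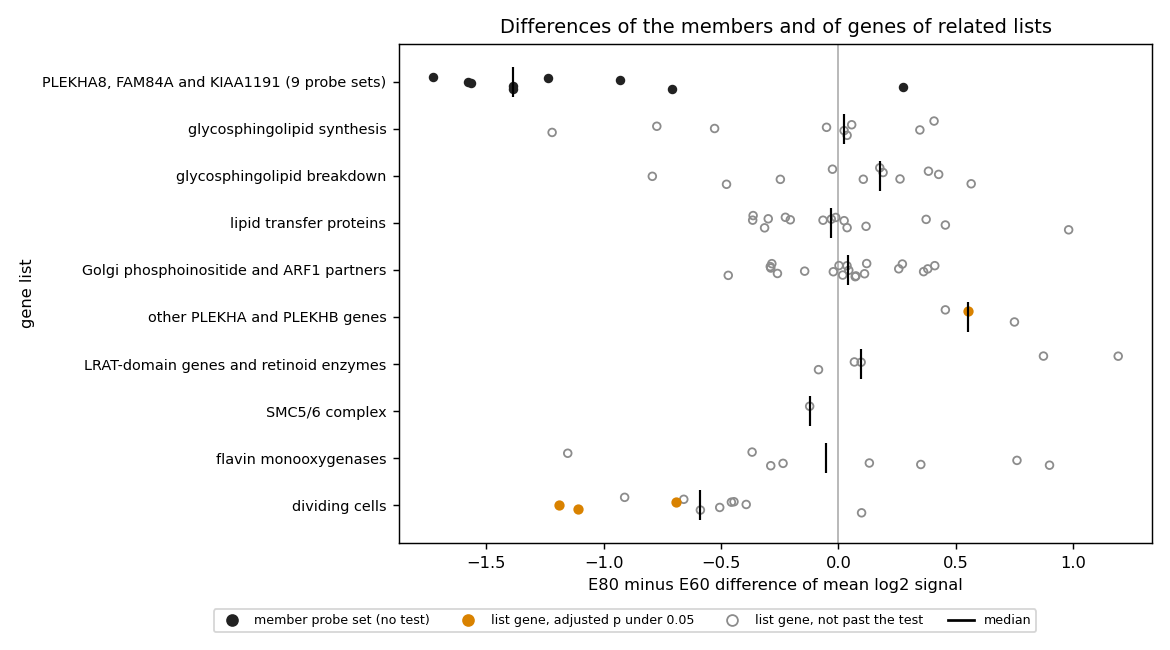
E80 minus E60 difference of mean log2 signal for the 9 member probe sets (black, no test) and for the genes of each related list, on the brightest probe set per gene, with filled orange points past an adjusted p of 0.05 in limma and a black bar at each median. The 9 member sets, chosen for their drop and with several sets per gene, have a median of -1.38, which is not on the basis of the lists. On the brightest set alone the members stand at -0.71 (PLEKHA8), -1.57 (FAM84A) and 0.28 (KIAA1191). The pathway lists from glycosphingolipid synthesis to flavin monooxygenases have medians of -0.12 to 0.55, and the dividing cell list has one of -0.59.

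Position on the chromosomes was also compared, since it was not used to choose the genes. The 3 nearest genes with a probe set of their own on each side of each gene were taken from the RefSeq gene order of Sscrofa11.1. Genes without such a probe set often lay between. The neighbours taken stood 1 to 18 genes away from PLEKHA8, 4 to 20 from FAM84A and 1 to 17 from KIAA1191. Of these 18 neighbours 0 fell and 1 rose in limma (0 and 4 at an unadjusted p under 0.05), against 2.54% of all genes passing in either direction. On the brightest probe set of each gene the neighbours of PLEKHA8 had log2 differences of 0.003 to 0.49, with MTURN, a regulator of neural progenitor differentiation in frog, at 0.16 (adjusted p = 0.316) and the prolyl isomerase FKBP14 at 0.12 (adjusted p = 0.849) adjacent on either side. Other probe sets of 2 of these genes lay below 0, FKBP14 at -0.44 and -0.079 and TAX1BP1 at -0.27 (adjusted p = 0.206). On their brightest sets those of KIAA1191 had -0.95 to 0.27, with adjusted p of 0.206 or more in limma. The -0.95 belonged to SIMC1, near the bottom of the range of signals with means of 6.88 at E80 and 12.9 at E60. The neighbours of FAM84A, read the same way, ran from -0.74 (ROCK2, dim at means of 26.8 at E80 and 50.7 at E60) to 1.30. The 1.30 belonged to VSNL1, a neuronal calcium sensor 10 genes away from FAM84A. Its signals were 1960, 2168 and 1731 at E80, against 932, 653 and 811 at E60 (standard error 0.14, adjusted p = 0.0159 in limma). VSNL1 did not pass without E60 embryo 1 (adjusted p = 0.0610), E60 embryo 2 (0.0903) or E80 embryo 1 (0.0788), nor without the intensity trend (0.125).

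The genes most like each member were found among 4648 other genes brighter than the median, by the root mean square (RMS) difference of log2 signals over the 6 arrays after each gene was centred on its own mean. This measure is mostly the difference between the days, and it is a description. For PLEKHA8 on its brightest set the 5 nearest were the matrix protein THBS1 (RMS difference 0.03), the transcription cofactor CREBZF (0.06), RNF214 (0.07), the Golgi glycan-branching enzyme MGAT5 (0.08) and CSRP2 (0.08). THBS1 had signals of 85.8, 77.8 and 81.0 at E80, against 130, 127 and 140 at E60. CREBZF had 224, 212 and 212 at E80, against 363, 388 and 379 at E60.

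For FAM84A on its brightest set the 5 nearest were farther off, at RMS differences of 0.24 to 0.34. They were LOC641352, DPY19L1, TMEM44, the semaphorin receptor PLXNA2 and the threonine dehydrogenase TDH. DPY19L1, which in mouse is needed for the radial migration of cortical neurons, had signals of 222, 160 and 196 at E80, against 513, 482 and 404 at E60. PLXNA2 had 627, 289 and 283 at E80, against 899, 774 and 660 at E60. Like FAM84A, both were highest in embryo 1 among the E80 embryos.

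The 2 probe sets of KIAA1191 had no nearest gene in common, and with opposite day differences they could hardly share one by this measure. The brighter one was nearest to ATP2A2, the calcium pump of the endoplasmic reticulum (RMS difference 0.04), UBE2T (0.04), the mitochondrial channel VDAC1 (0.04), TCEAL4 (0.04) and the malate dehydrogenase MDH1 (0.05). The dimmer one, compared after its direction was seen, was nearest to the centrosome protein CEP85 (0.16), LOC641352 (0.18), DPY19L1 (0.24), CKS2, a partner of cyclin-dependent kinases (0.24), and TMEM44 (0.25). DPY19L1 was among the 5 nearest genes of 5 of the 9 member probe sets, which belong to all 3 genes, TMEM44 of 4 and CEP85 of 3. With Pearson correlation as the likeness, neither DPY19L1 nor TMEM44 was among the 5 nearest of any of these sets. On the brightest sets the 2 measures shared 2 of 5 genes for PLEKHA8, 1 for FAM84A and 3 for KIAA1191.

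**Figure D5:**
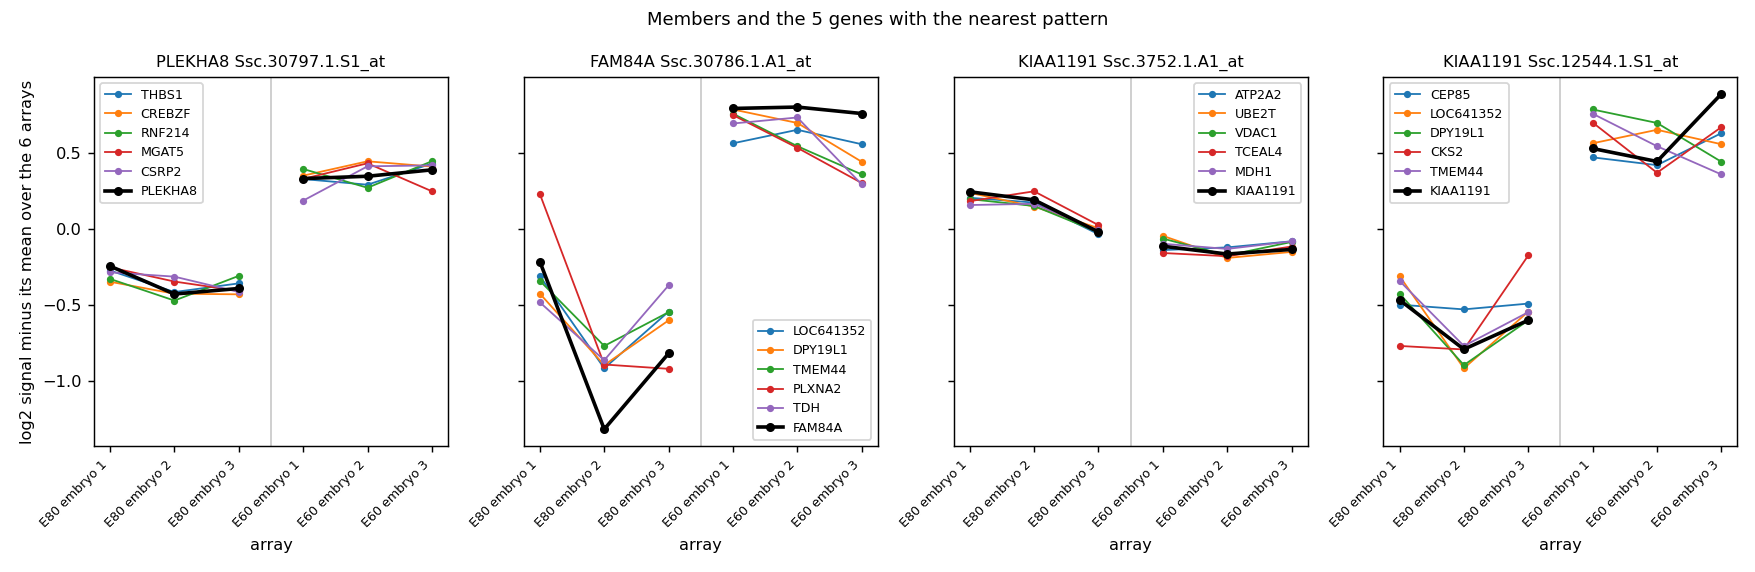
Log2 signal minus its mean over the 6 arrays for 4 member probe sets (black) and the 5 genes nearest to each (coloured), with the E80 arrays left of the E60 arrays. Lines only join the points of one gene within a day, and the nearest genes of PLEKHA8 (RMS difference 0.03 to 0.08) lie closer to it than those of FAM84A (0.24 to 0.34).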

How the data were processed

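The authors deposited MAS5 intensity values, 1 per probe set and array on a linear scale, with each array multiplied by 1 scale factor. Detection calls were not used here, and the MAS5 version is not given in the sources used here. On the array there are 24123 probe sets, and 124 controls were left out. Of the 23999 left, 10069 carry exactly 1 symbol in the platform annotation, 198 several and 13732 none, and symbols were used as that annotation gives them. The log2 of the signal was taken with no pseudocount, and E80 was compared with E60 over all 6 arrays with limma 3.58.1 in R 4.3.3 (eBayes with an intensity trend, Benjamini-Hochberg adjustment over all probe sets, threshold 0.05). The authors' methods name a fold rule and no test. Lists were read on the brightest probe set of each gene, with no set test.

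The members and lists were chosen with earlier results of these data known. Named were all member probe sets, their closest relatives, the 5 most alike genes and 6 neighbours of each, pathway genes past the test, and up to 2 genes per marker list. ARF1, PI4KB, PSAP, OSBPL1A, CERS2, RBP4, NSMCE4A, TOP2A and VIM were chosen after their values were seen. On simulated arrays limma found 98 of 100 probe sets lowered 2-fold and 100 of 100 lowered 3-fold, with 9 false calls among 23999. The changed sets all lay above the median level, and every set got independent noise with the median within-day SD of its level. Dimmer changed sets and sets that spread more than this were not simulated, so their recovery is not known. Alternatives were an offset of 32, median centring, quantile normalization, leaving out each array, no intensity trend, array weights, brighter probe sets only, and other choices of likeness and of probe set, of which those for dividing cells, PLEKHB2 and the other KIAA1191 probe set were chosen after seeing the data. Arrays have no counting depth, so their number, 3 per day, limits the precision. No promoter, protein or probe sequence was used here.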

Additional observations from a re-analysis of the deposited data

How the results depend on the processing

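No paired analysis was possible because the E60 and E80 arrays come from different embryos and the labels link none of them. All 9 member probe sets kept their direction in each of the 9 alternatives run for them, and 71 of these 81 values moved by less than 1 within-day SD. Leaving out 1 array or adding 32 to each signal could not turn a direction, since the days did not overlap on any set. The median log2 difference of PLEKHA8 was -1.38, -0.86 with 32 added to each signal and -1.51 to -1.23 when each array was left out in turn. That of FAM84A was -1.82 to -1.34 without single arrays. For KIAA1191 a median has no direction to keep, since it lies between 2 opposed probe sets.

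The count of probe sets past the test, 224 higher and 243 lower at E80, depended on the setting. It was 311 higher and 108 lower after median centring, 387 higher and 435 lower among brighter probe sets only, 520 higher and 649 lower with array weights, and 0 higher and 0 lower without the intensity trend in limma, where 1398 higher and 2308 lower had an unadjusted p under 0.05. Leaving out 1 array gave 0 to 178 higher and 1 to 189 lower, with 0 higher and 1 lower without E60 embryo 1, E60 embryo 2 or E80 embryo 1 (1367 to 1442 higher at an unadjusted p under 0.05). The cause was not tested. Among neighbours and relatives that did not pass, signs turned for TAX1BP1 (0.003, against -0.077 after quantile normalization, -0.013 with array weights and -0.053 to 0.059 without single arrays), FKBP14 (-0.033 with array weights, -0.12 to 0.34 without single arrays), PLEKHA3 (-0.22 to 1.18 without single arrays) and CLTB (-0.49 to 0.066 without single arrays). Of the lists in which 0 genes passed, glycosphingolipid synthesis had 2 with array weights and 1 among brighter probe sets. Breakdown and lipid transfer had 1 each with array weights, among brighter probe sets and after median centring, and the LRAT list had 1 with array weights, among brighter probe sets and without E60 embryo 3.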
